A study of Homo sapiens with 6 samples.

Results

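The SWI/SNF core was followed through 10 genes. They encode both alternative ATPases (SMARCA4, SMARCA2), the large subunits that set the type of complex (ARID1A, ARID1B, ARID2, PBRM1) and scaffold subunits (SMARCB1, SMARCC1, SMARCC2, SMARCE1). The genes were chosen by name and were found as 10 of the 19899 genes in the table of estimated counts. RNA-seq was performed on COV434, an ovarian cell line long used as a granulosa cell tumor line, which the study groups with SCCOHT, the hypercalcemic form of small cell ovarian carcinoma. Parental cells received either a control plasmid (Control, n = 3) or PBJ5-BRG1, which carries SMARCA4 (BRG1, n = 3). The study's methods give the control plasmid as pCMV-neo or pCDNA3-neo. Either plasmid was mixed at 6.25 to 10 parts with 1 part of the puromycin resistance plasmid pBABE-puro. Both groups were treated with 2 to 3 µg/ml puromycin from 24 h after transfection, for 3 days, and samples are numbered 1 to 3 in each group. All samples come from 1 cell line, expression is from a transient plasmid, and the backbones differ, so that the backbone and BRG1 cannot be told apart.

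SWI/SNF complexes use the energy of ATP to slide or eject nucleosomes. Each complex holds a single ATPase, either SMARCA4 (BRG1) or SMARCA2 (BRM), on a scaffold of SMARCC1, SMARCC2 and, in most forms, SMARCE1 and SMARCB1. ARID1A or ARID1B defines the BAF form, and ARID2 with PBRM1 defines the PBAF form. SCCOHT is known for loss of SMARCA4 protein, usually with silencing of SMARCA2.

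In these cells SMARCA4 was the 1 core gene that changed in every fit. SMARCA2 RNA was at 4 to 43 estimated counts in every sample of either group. The scaffold gene SMARCC1 was 17.7% lower in mean with BRG1 and the PBAF gene ARID2 was 21.4% lower, and neither was called without pairing. Compared within replicate numbers, both were called by DESeq2 and SMARCC1 also by edgeR. The other 7 members were called in none of the fits.

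Libraries held between 29699759 and 63613736 estimated counts, with BRG1 sample 3 the shallowest. Levels are given as normalised counts, the estimated counts divided by DESeq2 size factors. Fold changes compare BRG1 with Control, and a gene was called when its adjusted p was under 0.05. Of the 10 granulosa markers, FOXL2 and FSHR were at 3 counts or fewer in every sample. NR5A1 (means 1.54 in Control and 1.59 in BRG1) and GATA4 (5.87 and 4.1) were also low. AMH (295 and 408) and INHA (41.9 and 38.2) were present in both groups and were not called. The summed level of the 10 granulosa markers was 6510 to 9910 in Control and 5900 to 9230 in BRG1, most of it WT1 (6086 to 9466 in Control and 3592 to 7887 in BRG1). DESeq2 gave 7 of the 10 an adjusted p and called 3 of these 7 higher, against 11.0% of all genes tested. The 3 were CYP19A1 (means 23.3 and 322), INHBB (13.9 and 176) and INHBA (91.6 and 701). The 4 endothelial markers summed to 1320 to 2180 in Control and 5330 to 6000 in BRG1, of which KDR held means of 1785 and 1961, and DESeq2 called VWF (44.8 and 3498) and CDH5 (0.505 and 143) higher. The 6 fibroblast markers summed to 5240 to 8750 and 4270 to 9340, most of it COL3A1 (means 5566 and 5407), which was not called. Of these 6, 3 had a log2 fold change above 0 and 3 below, and only PDGFRA was called (6.6 and 66.8, higher). The 5 blood markers summed to 345 to 678 and 395 to 775, most of it PTPRC (505 and 520), which was not called. HBB was called higher (1.94 and 32.5), and CD3E was at 3 counts or fewer throughout. Among markers with an adjusted p, DESeq2 called higher 2 of 4 endothelial, 1 of 6 fibroblast and 1 of 3 blood markers, against 11.0% of all genes tested. The part of these markers in the values of the core genes was not tested. In bulk RNA a change in the share of cells that express a gene and a change in RNA per cell cannot be told apart.

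SMARCA4 (ENSG00000127616.22) maps to the plus strand of chromosome 19, between bases 10960932 and 11079426 of GRCh38. Its normalised counts were 1439, 1676 and 1538 in Control samples 1 to 3 and 108655, 79075 and 78589 in BRG1 samples 1 to 3. Every BRG1 sample was far above every Control sample, and BRG1 sample 1 was the highest. Group means were 1551 ± 119 and 88773 ± 17220 (SD, n = 3), and SMARCA4 rose by 5.84 ± 0.18 (SE) on the log2 scale (DESeq2 adjusted p 5.43e-216). This is a 57.2-fold rise with a 95% interval of 44.6 to 73.5. Within replicate numbers 1, 2 and 3 the rise was 75.5-, 47.2- and 51.1-fold. SMARCA4 RNA was present in Control cells, where it took 0.00311% to 0.00354% of all counts. In BRG1 samples it took 0.235%, 0.175% and 0.177%. By count it moved from rank 6178, 5614 and 5808 among all genes in Control to rank 23, 36 and 39. These values sum the endogenous gene and the plasmid, and the 2 sources cannot be told apart in a table of gene counts.

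SMARCA2 (ENSG00000080503.25) maps to the plus strand of chromosome 9, between bases 1980290 and 2193624. Its normalised counts were 23.1, 22.3 and 3.79 in Control and 30.5, 35.7 and 5.97 in BRG1. Sample 3 was the lowest in each group, and the groups overlapped. These levels rest on 19, 19 and 5 estimated counts in Control and 42, 43 and 4 in BRG1, after rounding. Within replicate numbers the BRG1 sample was 1.32-, 1.6- and 1.58-fold the Control sample, but the number 3 pair rests on 5 and 4 counts. The log2 fold change was 0.59 with a 95% interval of -1.17 to 2.34 (DESeq2 adjusted p 0.831), and 0.57 when blocked by replicate number (DESeq2 adjusted p 0.716). Leaving out Control sample 3 gave 0.11, and leaving out BRG1 sample 3 gave 1.04. In folds the unblocked interval ran from 0.444 to 5.08, and no difference was detectable at this depth. The spread within groups was wider than for any other member, with a coefficient of variation of 66.7% in Control and 66.0% in BRG1.

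**Figure D1:**
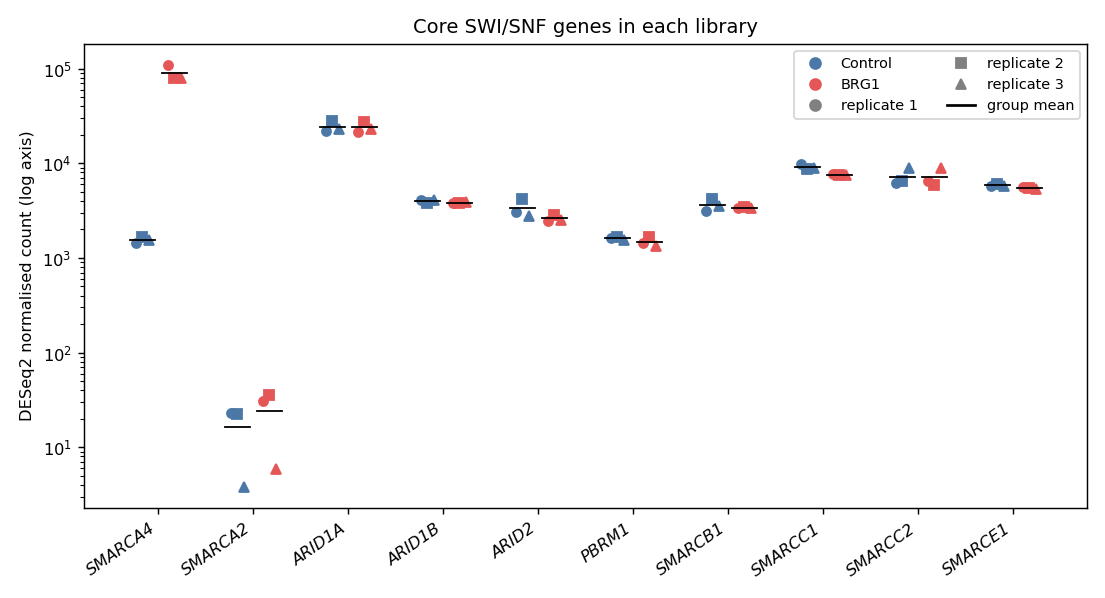
Normalised counts of the 10 core genes on a log axis, with Control samples in blue, BRG1 samples in red, symbols for replicates 1 to 3 and bars for group means. SMARCA4 rose from 1551 to 88773 in mean, SMARCA2 lay between 3.79 and 35.7 in all 6 samples, and the other 8 genes lay between 1348 and 28010.

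The start-site sequences of the ATPase genes are shown because SMARCA4 and SMARCA2 stood far apart in RNA level. The study concerns the transcription factor AP-1, whose consensus site is TGACTCA or, on the other strand, TGAGTCA. The SMARCB1 window is shown as well, as the only window outside the ATPase genes that held this site. Each window is read from the RefSeq annotation of GRCh38.p14, holds 250 bases before and 50 bases after an annotated start site, and is printed 5′ to 3′ on the strand of the gene with the AP-1 letters in capitals.
SMARCA4, chr19:10960780-10961079, plus strand: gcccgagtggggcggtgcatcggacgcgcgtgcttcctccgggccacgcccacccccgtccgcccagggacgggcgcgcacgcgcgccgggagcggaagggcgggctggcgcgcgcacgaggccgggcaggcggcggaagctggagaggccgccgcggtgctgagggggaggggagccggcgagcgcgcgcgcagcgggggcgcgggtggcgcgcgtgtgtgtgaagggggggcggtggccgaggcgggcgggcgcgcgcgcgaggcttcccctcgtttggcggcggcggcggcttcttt
SMARCA2, chr9:2015097-2015396, plus strand: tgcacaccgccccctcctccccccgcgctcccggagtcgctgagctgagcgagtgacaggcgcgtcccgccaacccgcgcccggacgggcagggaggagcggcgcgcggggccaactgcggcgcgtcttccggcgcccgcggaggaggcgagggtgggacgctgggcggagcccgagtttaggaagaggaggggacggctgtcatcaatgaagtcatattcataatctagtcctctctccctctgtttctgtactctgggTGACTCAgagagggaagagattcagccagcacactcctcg
SMARCB1, chr22:23786716-23787015, plus strand: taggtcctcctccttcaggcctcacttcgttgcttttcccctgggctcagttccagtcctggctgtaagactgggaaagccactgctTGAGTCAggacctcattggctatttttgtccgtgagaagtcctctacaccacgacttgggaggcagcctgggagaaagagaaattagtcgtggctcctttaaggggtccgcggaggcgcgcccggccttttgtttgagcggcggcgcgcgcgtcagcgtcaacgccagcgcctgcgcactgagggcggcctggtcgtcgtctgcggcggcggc
RefSeq lists more than 1 start site for SMARCA4 and SMARCA2, and the window shown is the one nearest the 5′ end of the gene. The SMARCA4 window held 55 CpG dinucleotides at 81.3% G and C, against medians of 14 and 58.7% over 35116 windows, and neither form of the AP-1 site. The SMARCA4 window at the downstream start held 5 CpG dinucleotides at 57.0% G and C, and no site. The SMARCA2 window held 30 CpG dinucleotides at 66.7% G and C, with TGACTCA beginning at base 261, after the start site. The downstream SMARCA2 windows held 3, 4 and 9 CpG dinucleotides at 43.0% to 48.7% G and C, and no site. The SMARCB1 window held 25 CpG dinucleotides at 61.7% G and C, with TGAGTCA beginning at base 88, before the start site. Over both strands, 1738 windows (4.95%) held the site. RefSeq windows were matched for 7 of the 10 members (13 windows, 2 with the site), and ARID2, SMARCC1 and SMARCC2 had no window. The windows of ARID1A, ARID1B, PBRM1 and SMARCE1 held no site and are not shown. A match describes letters in the window and is not evidence of binding, and the SMARCA4 window belongs to the endogenous gene and not to the plasmid.

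ARID1A (ENSG00000117713.21, chromosome 1, 26693236 to 26782104, plus strand) encodes the large DNA-binding subunit of most BAF complexes. It held 21836, 28010 and 23235 normalised counts in Control and 21582, 27301 and 22964 in BRG1. The replicate numbers ranked alike in both groups, with number 2 the highest and number 1 the lowest. The 3 within-number ratios of 0.988, 0.975 and 0.988 were close together, and the log2 fold change was -0.02 with a 95% interval of -0.36 to 0.31 (DESeq2 adjusted p 0.969). The replicate block narrowed the interval to -0.18 to 0.14.

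ARID1B (ENSG00000049618.25, chromosome 6, 156776020 to 157210779, plus strand) encodes the alternative to ARID1A in the BAF form. It held 4087, 3824 and 4057 normalised counts in Control and 3815, 3771 and 3869 in BRG1. The BRG1 samples were lower within all 3 numbers, but Control sample 2 lay among the BRG1 samples. The log2 fold change was -0.06 with a 95% interval of -0.28 to 0.15 (DESeq2 adjusted p 0.857).

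ARID2 (ENSG00000189079.18, chromosome 12, 45729706 to 45908040, plus strand) encodes the ARID subunit of PBAF. It held 3073, 4158 and 2801 normalised counts in Control and 2480, 2863 and 2543 in BRG1. BRG1 sample 2 lay above Control sample 3, so the groups overlapped, and Control sample 2 was the highest of all. The means were 3344 ± 718 in Control and 2629 ± 205 in BRG1 (SD, n = 3), and the difference of -0.35 ± 0.2 (SE) on the log2 scale was not called (DESeq2 adjusted p 0.326). Within numbers 1, 2 and 3 the BRG1 sample was at 0.807, 0.689 and 0.908 of its Control sample. Blocked by replicate number, ARID2 fell by 0.33 on the log2 scale, with a 95% interval of -0.57 to -0.09 (DESeq2 adjusted p 0.0399). The same block in edgeR gave -0.34 and no call (edgeR adjusted p 0.0569). Leaving out single samples moved the unblocked value between -0.46 and -0.16.

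PBRM1 (ENSG00000163939.19, chromosome 3, 52545352 to 52685917, minus strand) encodes the PBAF subunit with a row of bromodomains. It held 1619, 1645 and 1557 normalised counts in Control and 1421, 1660 and 1348 in BRG1. BRG1 sample 2 was the highest of the 6 and the other BRG1 samples were the lowest. The log2 fold change was -0.12 with a 95% interval of -0.41 to 0.17 (DESeq2 adjusted p 0.765). PBRM1 stayed uncalled with the replicate block (DESeq2 adjusted p 0.577), where ARID2 was called. Whether the 2 PBAF genes differed in response was not tested.

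SMARCC1 (ENSG00000173473.11, chromosome 3, 47585269 to 47782106, minus strand) encodes BAF155, around which the core is assembled. It held 9880, 8759 and 8960 normalised counts in Control and 7637, 7567 and 7496 in BRG1. Every BRG1 sample was below every Control sample, and the BRG1 samples lay close together. The means were 9200 ± 597 and 7567 ± 70.6 (SD, n = 3), a difference of -0.28 ± 0.12 (SE) on the log2 scale with a 95% interval of -0.51 to -0.06. Its unadjusted p of 0.0146 became 0.0962 after adjustment over all genes (DESeq2), and edgeR and limma-voom gave adjusted p-values of 0.123 and 0.107. Within numbers 1, 2 and 3 the BRG1 sample was at 0.773, 0.864 and 0.837 of its Control sample. Blocked by replicate number, SMARCC1 fell by 0.28 ± 0.09 (SE) on the log2 scale in DESeq2 (adjusted p 0.0163) and was also called by edgeR (adjusted p 0.0464). No other core gene was called with the block by both tools apart from SMARCA4.

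SMARCC2 (ENSG00000139613.12, chromosome 12, 56162359 to 56189567, minus strand) encodes BAF170, the paralog and partner of BAF155. It held 6191, 6436 and 8976 normalised counts in Control and 6553, 5840 and 8984 in BRG1. Sample 3 was the highest in each group, at 1.42 times the mean of samples 1 and 2 in Control and 1.45 times in BRG1. This is the reverse of SMARCA2, where sample 3 was at 0.167 and 0.18 of that mean. The log2 fold change was -0.02 with a 95% interval of -0.48 to 0.45 (DESeq2 adjusted p 0.987), which the replicate block narrowed to -0.21 to 0.17. Exons of other genes, among them the abundant MYL6, cover 9.91% of its exonic bases, so its level is uncertain in these unstranded libraries.

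**Figure D2:**
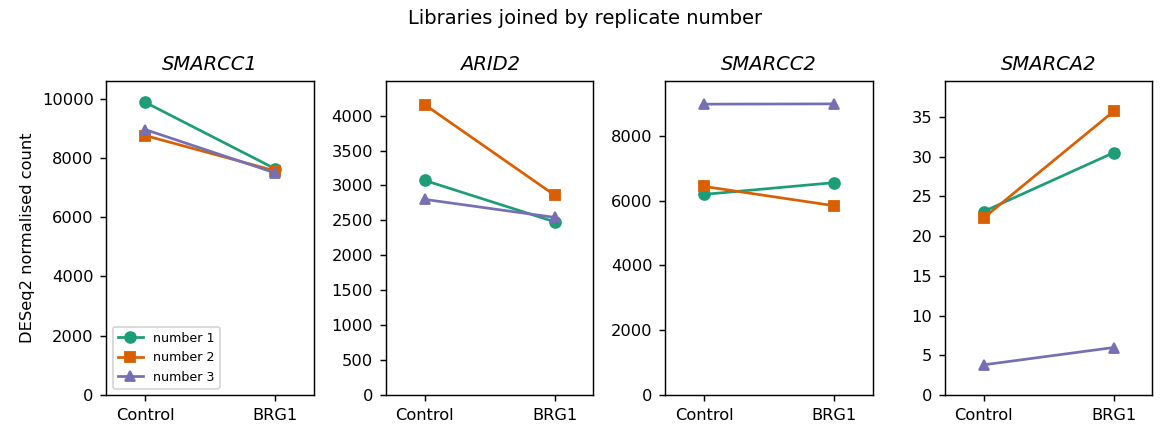
Normalised counts of SMARCC1, ARID2, SMARCC2 and SMARCA2 from 0 upward, with lines joining the Control and BRG1 samples of the same replicate number. SMARCC1 and ARID2 were lower in BRG1 along all 3 lines, while SMARCC2 and SMARCA2 differed more between number 3 and the other numbers than between groups.

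SMARCB1 (ENSG00000099956.20, chromosome 22, 23786931 to 23838009, plus strand) encodes SNF5, the subunit lost in rhabdoid tumors. It held 3128, 4201 and 3502 normalised counts in Control and 3353, 3461 and 3355 in BRG1. The BRG1 samples lay inside the Control range. The log2 fold change was -0.09 with a 95% interval of -0.4 to 0.22 (DESeq2 adjusted p 0.859). Exons of DERL3 cover 17.7% of its exonic bases, but DERL3 itself held between 0 and 2.35 normalised counts.

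SMARCE1 (ENSG00000073584.20, chromosome 17, 40624962 to 40648654, minus strand) encodes BAF57, which carries an HMG domain. It held 5811, 6068 and 5688 normalised counts in Control and 5635, 5534 and 5303 in BRG1. The BRG1 samples were all below the Control samples, by a margin smaller than the spread within a group. The log2 fold change was -0.09 with a 95% interval of -0.31 to 0.12 (DESeq2 adjusted p 0.756), and the replicate block did not call it (DESeq2 adjusted p 0.584). SMARCE1 has 7 annotated pseudogenes, and exons of other genes cover 18.9% of its exonic bases, so its level is uncertain.

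Counted together, 1 of the 10 members was called higher by DESeq2, against 11.0% of the 15991 genes tested, and 0 were called lower, against 1.84%. The higher gene was SMARCA4, the transfected gene. Among the 9 others, an unadjusted p under 0.05 was reached by 1 gene, SMARCC1, and edgeR and limma-voom called 0 of them. These tools called 9.57% and 9.31% of genes higher and 1.02% and 1.19% lower. With the replicate block DESeq2 called 2 members lower, against 6.62% of genes, and edgeR called 1, against 5.68%. The higher call was again SMARCA4 alone, against 13.4% of genes in DESeq2 and 13.7% in edgeR. Of the 9 members other than SMARCA4, 8 had a log2 fold change below 0, with a median of -0.09 beside a median of 0.0 over all genes. Of the 18096 genes with a count, 9062 were below 0. Among the 14246 genes that edgeR kept, 7933 were below 0 with a median of -0.04, and there the 9 members had a median of -0.1. The groups did not overlap for SMARCA4, which was higher, and for SMARCC1 and SMARCE1, which were lower. Over all tested genes 16.7% were higher without overlap and 9.92% were lower, and the 2 lower members of 10 are a description.

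**Figure D3:**
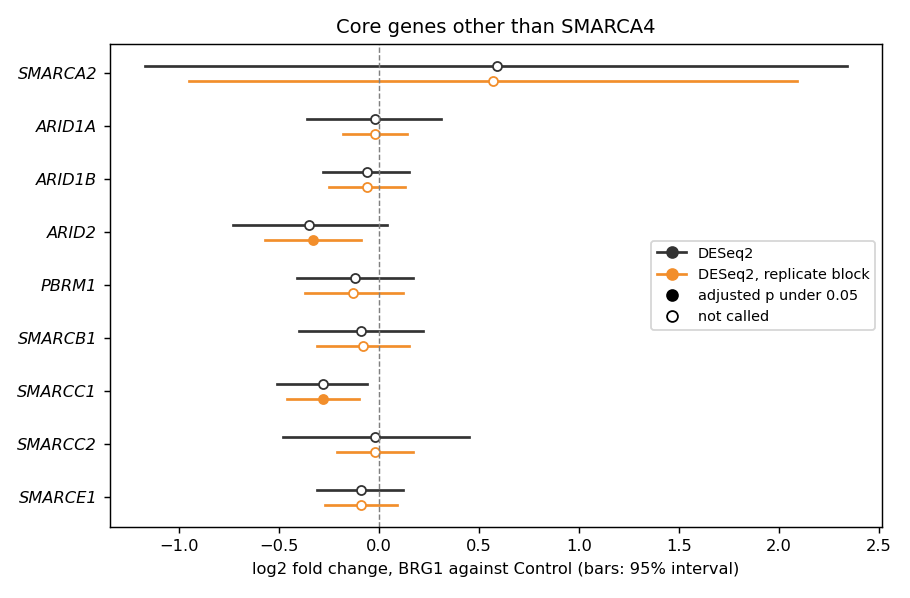
Log2 fold changes of the 9 core genes other than SMARCA4 (BRG1 against Control) with 95% intervals, from DESeq2 without the replicate block in black and with it in orange. Filled points mark an adjusted p under 0.05, which only ARID2 and SMARCC1 reached and only with the block, and the interval of SMARCA2 from -1.17 to 2.34 was the widest.

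To compare the members with each other, normalised counts were divided by exonic length, in kilobases of the canonical transcript. In Control samples ARID1A stood highest at 2834 ± 377 per kb, followed by SMARCC1 at 1448 ± 94, SMARCC2 at 1415 ± 303 and SMARCE1 at 1137 ± 37.7 (SD, n = 3). The last 3 formed a group in which SMARCC2 did not differ from either neighbor beyond its spread. SMARCB1 followed at 696 ± 105, and ARID2 at 389 ± 83.5 and ARID1B at 387 ± 14 could not be ordered. SMARCA4 came eighth at 278 ± 21.3, PBRM1 had 201 ± 5.69, and SMARCA2 had 2.85 ± 1.9 per kb. Among 16733 genes with a length, these values placed ARID1A at percentile 93.5, SMARCA4 at percentile 58.7 and SMARCA2 at percentile 23.2.

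The SMARCA4 level in Control was 0.428, 0.371 and 0.409 of the SMARCB1 level per exonic kb. In BRG1 samples this ratio was 30.2, 21.3 and 21.8, and SMARCA4 per kb was at percentile 99.0. At the RNA level the ATPase was far above its scaffold partners after transfection, and its ratio to SMARCC1 moved from 0.166, 0.218 and 0.196 to 16.2, 11.9 and 11.9. Per coding kb the SMARCA4 to SMARCB1 ratio was lower, at 0.108, 0.0936 and 0.103 in Control and 7.6, 5.36 and 5.5 in BRG1. Whether the protein followed was not measured here.

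Among paralogs, ARID1A exceeded ARID1B per exonic kb by 6.41-, 8.79- and 6.87-fold in Control and by 6.79-, 8.68- and 7.12-fold in BRG1. The groups overlapped, and number 2 was the highest in both. SMARCC1 stood to SMARCC2 at 1.28, 1.09 and 0.8 in Control and at 0.934, 1.04 and 0.668 in BRG1, lower within each number. Per coding kb the ratios were 1.8, 1.53 and 1.12 in Control and 1.31, 1.46 and 0.94 in BRG1, so that which paralog was higher in Control sample 3 and BRG1 sample 1 turned with the length used. The ratio of the BAF gene ARID1A to the PBAF gene ARID2 was 7.11, 6.74 and 8.3 in Control and 8.71, 9.54 and 9.03 in BRG1, without overlap and with no test. PBRM1 to ARID2 was 0.567, 0.426 and 0.598 in Control and 0.616, 0.624 and 0.57 in BRG1, with overlap.

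**Figure D4:**
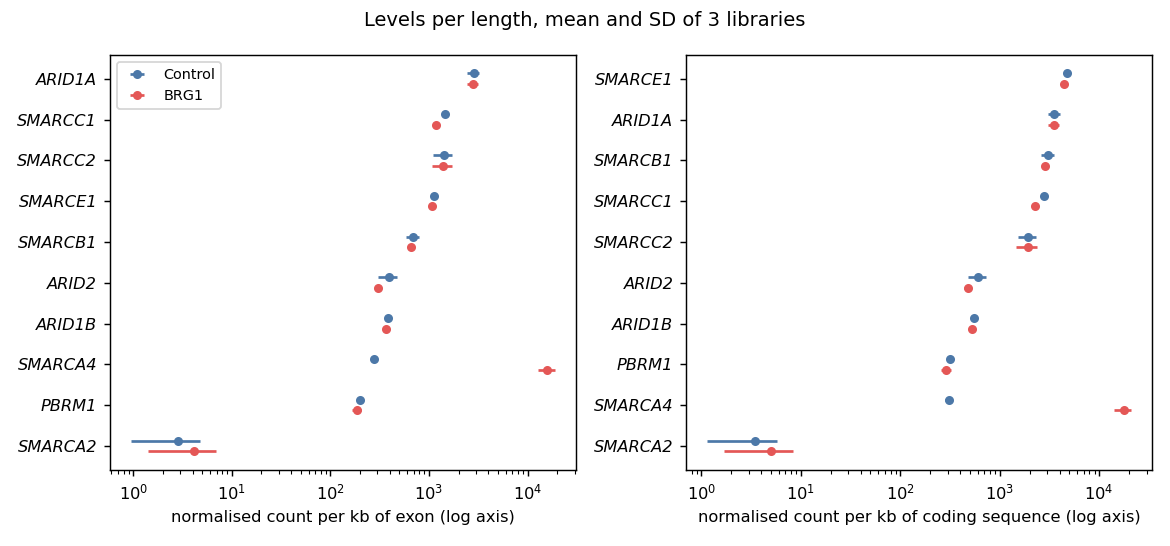
Mean and SD of 3 samples for each core gene, in normalised counts per kb of exon (left) and per kb of coding sequence (right), on log axes and sorted by the Control mean. SMARCA4 in BRG1 samples lay to the right of all other members on both scales and SMARCA2 to the left of all others, while SMARCE1 stood at the top in Control when coding length was used.

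The remaining SWI/SNF subunits were counted as a list of 21 genes. DESeq2, which gave 20 of them an adjusted p, called 1 higher (11.0% over all genes) and 0 lower (1.84% over all genes), and 1 was lower by unadjusted p under 0.05. edgeR and limma-voom, which tested 18, likewise called 1 and 0. The median log2 fold change was -0.12, with 12 genes below 0 and 9 above. The gene called higher was DPF3, a histone-reading subunit of BAF best known from heart and muscle. DPF3 held 15.8, 24.6 and 2.27 normalised counts in Control and 398, 171 and 166 in BRG1. Every BRG1 sample was above every Control sample, and DPF3 rose by 4.14 ± 0.66 (SE) on the log2 scale (DESeq2 adjusted p 1.05e-08, edgeR adjusted p 0.00885). Its paralogs DPF1 and DPF2 had log2 fold changes of -0.31 and 0.05 and were not called (DESeq2 adjusted p 0.585 and 0.932).

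Blocked by replicate number, DESeq2 called 4 of these subunits lower and DPF3 higher, against 6.62% and 13.4% of all genes. The 4 were ACTL6A, an actin-related subunit, SMARCD3, SS18L1 and BCL7C. ACTL6A held 2372, 2659 and 2824 normalised counts in Control and 1652, 2017 and 2418 in BRG1, which overlapped between groups but was lower in BRG1 within each number (log2 fold change -0.38, DESeq2 adjusted p 0.00962 with the block). The blocked log2 fold changes of SMARCD3, SS18L1 and BCL7C were -0.35, -0.37 and -0.37 (DESeq2 adjusted p 0.0203, 0.00988 and 0.0344). In edgeR with the block BCL7C was not called (edgeR adjusted p 0.0707) and the other 3 were, against 5.68% of all genes. The paralogs SMARCD1 and SMARCD2 had blocked log2 fold changes of 0.13 and -0.12, SS18 of -0.09, and BCL7A and BCL7B of -0.22 and -0.2, and none of these was called by DESeq2 with the block (0.402, 0.466, 0.636, 0.24 and 0.18 as adjusted p). The actin gene ACTB was not called either (0.327 as DESeq2 adjusted p with the block). ACTL6B, the neuronal counterpart of ACTL6A, held between 5.8 and 15.8 normalised counts.

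As a comparison, 18 genes that encode ATPases of other remodelers (the ISWI, CHD and INO80 families and related proteins) were counted. DESeq2 called 0 in either direction, and by unadjusted p under 0.05 it gave 1 higher and 0 lower. Both edgeR and limma-voom called 0. The median log2 fold change was 0.0. SMARCA1 and SMARCA5, the ISWI relatives of the SWI/SNF ATPases, had log2 fold changes of -0.19 and 0.22 (DESeq2 adjusted p 0.437 and 0.37). The replicate block gave 3 higher and 1 lower of 18, near the 13.4% and 6.62% over all genes, and no result about the list is read from them. CHD1 (0.34), CHD6 (0.33) and INO80 (0.32) were called higher and HELLS (-0.52) was called lower on the log2 scale (DESeq2 adjusted p 0.00399, 0.0211, 0.0126 and 0.0111), and edgeR with the block called the same 4 (edgeR adjusted p 0.029, 0.0477, 0.0414 and 0.0342), where 13.7% and 5.68% of all genes were called. The other CHD genes (CHD2, CHD3, CHD4, CHD5, CHD7, CHD8, CHD9 and CHD1L) had blocked log2 fold changes between -0.26 and 0.16 and were not called (lowest DESeq2 adjusted p 0.0694, for CHD3), nor were SRCAP and EP400 of the INO80 family (DESeq2 adjusted p 0.26 and 0.993).

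**Figure D5:**
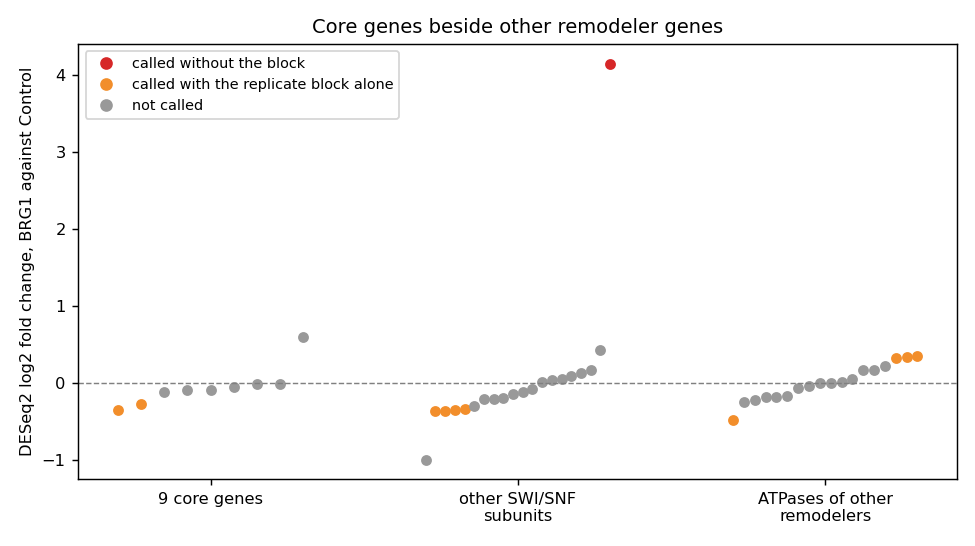
DESeq2 log2 fold changes (BRG1 against Control, without the block) of the 9 core genes other than SMARCA4, other SWI/SNF subunits and the 18 ATPases of other remodelers. Each gene is 1 point, sorted within its list. Of the 21 other subunits, the 20 with an adjusted p are shown, which leaves out BCL11B. DPF3 at 4.14 was the 1 gene called without the block (red), and the genes called with the block alone (orange) lay between -0.48 and 0.35.

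The genes whose profile across the 6 samples was most like that of SMARCA4 were ESM1, MMP2 and CYP4B1, at distances of 0.36, 0.68 and 0.7 on the centred log2 scale, among 11685 genes with a mean of at least 100. ESM1, a secreted proteoglycan gene, held 8.53, 11.7 and 9.84 normalised counts in Control and 699, 663 and 488 in BRG1. MMP2, a matrix metalloproteinase gene, held 30.5, 38.7 and 22.7 in Control and 2225, 1570 and 1079 in BRG1. CYP4B1, a cytochrome P450 gene, held 85.3, 62.1 and 65.1 in Control and 6095, 3873 and 2749 in BRG1. In these 3 genes BRG1 sample 1 was the highest and BRG1 sample 3 the lowest. With 2 separate groups of 3 samples, this likeness rests mostly on the group difference.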

How the data were processed

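RNA was measured by unstranded poly(A) RNA-seq (500 ng of RNA per sample, read pairs of 78 bases) in 3 Control and 3 BRG1 samples, which the design text calls biological replicates. The authors aligned reads to hg38 with STAR 2.5.3a and quantified GENCODE genes with Salmon 0.8.2, after FastQC 0.11.5, per the submitters' processing notes and the study's methods, and deposited 1 estimated count per gene and sample, scaled by transcript length and library size with tximport. They need not be whole, and reads that fit several genes were shared out by the model, so overlapping genes and genes with copies are uncertain.

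All values were rounded to integers first. The main test was the DESeq2 1.42.0 Wald test in R 4.3.3 on all 19899 genes (18096 with a count), with median-ratio size factors and Benjamini-Hochberg adjustment. DESeq2 is the study's tool (version 1.22.2 in its notes), and no design formula is given in the sources used here, so no covariate was used. edgeR 4.0.16 (quasi-likelihood test, TMM) and limma 3.58.1 (voom) were alternatives, as were a replicate block, TMM size factors, size factors made without the 10 members, a filter of 10 counts in 3 samples, a threshold of 0.01 and leaving out each sample. Intervals are 95% Wald intervals of the fold change between groups, and they do not give the range of single samples or pairs. Same-numbered samples deviated together from their group means (correlations 0.52, 0.52 and 0.61 over 11686 genes). Other pairs gave -0.52 to 0.07, which adds no separate support because deviations cancel out within each group. On this check of the data alone, the numbers were taken as pairs in the replicate block, while the main test was unpaired. The fits were tested on simulated counts made without a replicate effect, so the block was not tested on paired data.

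Positions and exon lengths come from GENCODE release 44 (GRCh38), and start-site windows from RefSeq. A level of 3 counts or fewer was treated as the floor. Members, lists and the naming rule were chosen with earlier results of these data known. All 10 members were named. Genes of the lists of other subunits and of other remodeler ATPases were named when DESeq2 called them with or without the block, or when they were family mates of a member or of such a gene, and the 3 genes nearest to SMARCA4 in Euclidean distance of centred log2(normalised count + 1) were added. All 10 granulosa markers were named. Of the other cell type markers, those called by DESeq2, CD3E at the floor and the abundant KDR, COL3A1 and PTPRC were named after their values were seen.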

Additional observations from a re-analysis of the deposited data

How the results depend on the processing

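The rise of SMARCA4 was called in every fit and lay between 5.67 and 5.92 on the log2 scale when single samples were left out. Pairing changed the counts of calls. Paired by number (replicate block), DESeq2 called 2 core members lower in place of 0 and edgeR called 1. The block also gave 4 (DESeq2) and 3 (edgeR) lower calls among the other subunits, and 3 higher and 1 lower among the ATPases of other remodelers with either tool, where 0 were called without it. Over all genes the block called 13.4% higher and 6.62% lower in DESeq2, and 13.7% and 5.68% in edgeR. The 294 genes called lower among all genes became 1035 (DESeq2) and 809 (edgeR) with the block, 146 with edgeR, 169 with limma-voom and 130 at a threshold of 0.01. The split of all calls was 2095 higher and 1035 lower with the block, against 1764 and 294 without. Leaving out single samples gave 117 to 596 lower calls over all genes and 0 to 2 among the other subunits, the highest of each without BRG1 replicate 3, and 0 among the core members throughout.

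Uncalled core genes near 0 changed sign when single samples were left out. ARID1A lay between -0.13 and 0.09 on the log2 scale (positive without Control replicate 2, BRG1 replicate 1 or BRG1 replicate 3), SMARCB1 between -0.19 and 0.03 (positive without Control replicate 2) and SMARCC2 between -0.22 and 0.17 (positive without Control replicate 3, BRG1 replicate 1 or BRG1 replicate 2). The other members kept their sign in these fits, with SMARCA2 between 0.11 and 1.04 and ARID2 between -0.46 and -0.16. With coding length, the order in Control began with SMARCE1, ARID1A and SMARCB1, and SMARCA4 came after PBRM1. SMARCA2 rests on 4 to 43 counts per sample, which limits what can be said of it. Why results moved with the block was not tested.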
